A study of Homo sapiens with 8 samples.

Results

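The 33 genes described here code for proteins of the Fanconi anemia pathway, homologous recombination, mismatch repair, base and nucleotide excision repair, direct reversal and the DNA damage kinases. They were picked by symbol out of the 60664 genes of the deposited expression table by a rule that uses no measured value, with earlier results of these data known, and all 33 symbols were found. RNA-seq was done on THP-1 cells, a human acute monocytic leukemia cell line that the labels list as wild type, and on decitabine (DAC)-resistant THP-1 cells. Parental and DAC-resistant cells were each given DMSO or 1 µM DAC for 6 days, with 2 libraries per group labelled as biological replicates, which makes 8 libraries in 4 groups. The resistant line was selected from THP-1 cells by repeated cycles of DAC with drug-free recovery between them, and was held without drug before the experiment, so a difference between the lines is that of 1 selected population and not of resistance in general. No label says whether the 2 replicates came from separately treated cultures, so p-values measure the spread between these libraries only.

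DAC is a cytidine analogue that is built into DNA during replication, where it traps DNA methyltransferases as protein-DNA adducts and, over cell divisions, lowers DNA methylation. In the Fanconi pathway a core complex of FANC proteins attaches ubiquitin to the FANCD2-FANCI pair at stalled forks and crosslinks, and homologous recombination then rebuilds the broken DNA from the sister chromatid with BRCA1, PALB2, BRCA2 and their partners. Base excision repair takes out damaged or wrong bases, PARP1 and XRCC1 act at single-strand breaks, and the kinases ATM, ATR, CHEK1 and CHEK2 pass the damage signal to the cell cycle.

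The authors scaled the libraries by totals of 27480501 to 31916836 reads. A gene was tested if it reached 1 FPKM (reads per gene length and library size) in at least 2 of the 8 libraries. This kept 14899 genes and all 33 repair genes, FANCC and MGMT through parental libraries alone. Fold changes are differences of log2(FPKM + 1), from 1 limma fit of the 4 groups with Benjamini-Hochberg adjustment over all 14899 genes. In limma, "rose", "fell", "higher" and "lower" stand for an adjusted p under 0.05, and the 2-fold call for a change of 1 or more on the log2 scale, up or down, that reached a limma p of 0.01 before adjustment. The scale understates changes of genes near 1 FPKM. An exact permutation test of 2 against 2 libraries cannot go below p = 0.333. The limma tests use each gene's own spread within the 4 groups together with the spread shared across genes. Of the 74 tests of a repair gene that did not pass, over 5 comparisons, 29 passed under at least 1 alternative, so a gene given below as not passing is so in this fit. Of 10 monocytic leukemia marker genes 7 were at 1 FPKM or more in every library. They moved with the groups. In parental cells with DAC 9 rose and 1 (CD33) fell, and CD14 went from a mean of 1.52 to 19.9 FPKM and LYZ from 12 to 47.8 FPKM. None passed with DAC in DAC-resistant cells, and 7 with DMSO and 9 with DAC were lower in DAC-resistant cells. Their summed level was 260.7 to 265.9 FPKM in parental DMSO, 381.7 to 390.9 FPKM in parental DAC and 194.4 to 211.4 FPKM in the DAC-resistant libraries. Their part in the changes of the repair genes was not tested. All 4 T cell markers were below 1 FPKM in every library. Of 5 plasma cell markers 2 were at 1 FPKM or more in every library, and the sum of all 5 was 50.17 to 60.02 FPKM in parental and 94.98 to 101.4 FPKM in DAC-resistant libraries. XBP1, a gene of the secretory stress response in many cell types, gave most of it, with 43.4 to 57.7 FPKM in parental and 88.5 to 94.0 FPKM in DAC-resistant libraries. The B cell, erythroid and epithelial or stromal markers each summed to at most 7.51 FPKM. Levels of the repair genes in parental cells ran from 0.893 FPKM for FANCC to 115 FPKM for APEX1, and the plot of levels gives every library.

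**Figure D1:**
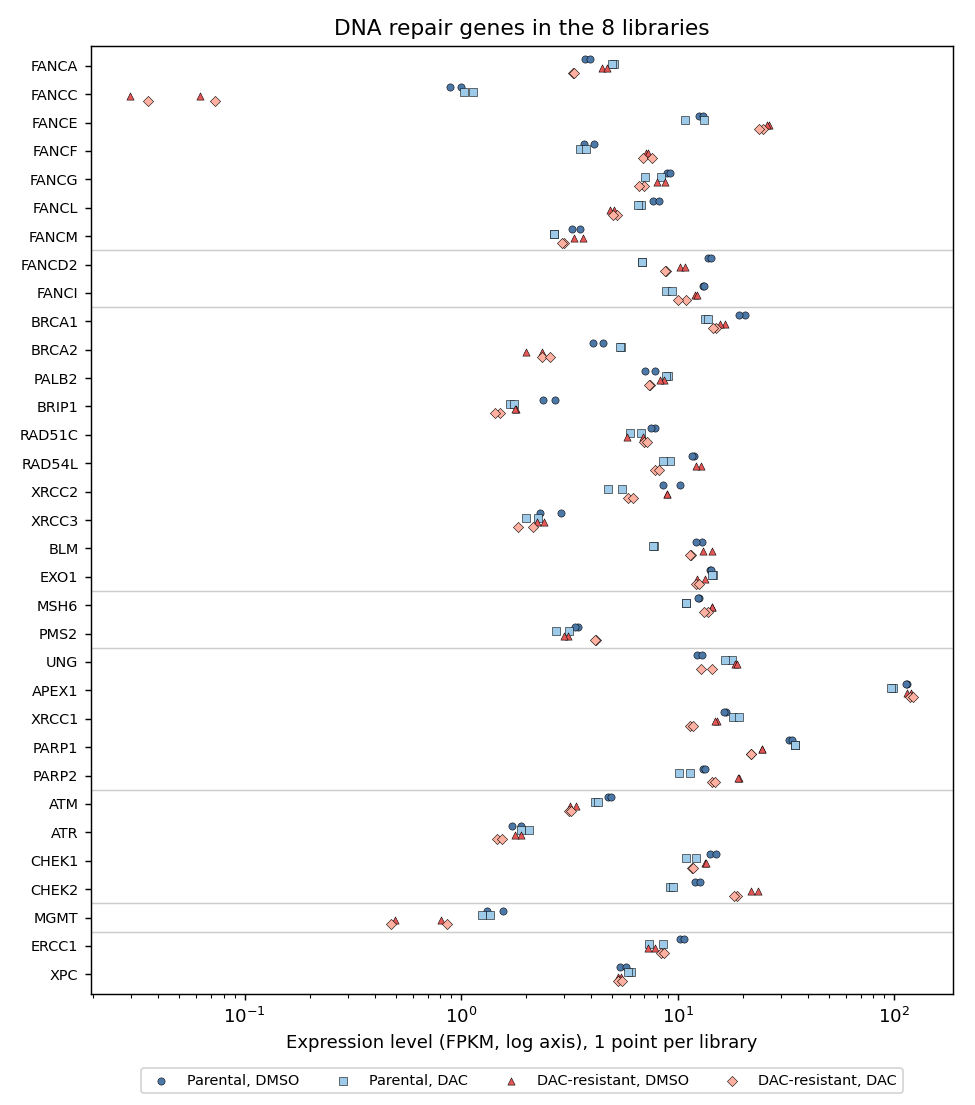
Expression level in FPKM (log axis) of the 33 repair genes, 1 point per library, with the 4 groups offset vertically and grey lines between functional groups. Replicates of most genes lie close together. APEX1 is the highest in every library, and the 4 FANCC points of DAC-resistant cells lie between 0.0297 and 0.0734 FPKM.

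DAC lowered more of these genes than it raised in parental cells, most of all FANCD2, XRCC2 and BLM, while UNG and FANCA were the largest of the few rises. Of the 33 genes 17 fell (51.5%), 5 rose (15.2%) and 11 did not pass the limma test. Among all genes tested 24.1% fell and 33.6% rose, and the median log2 fold change was -0.21 over the repair genes and 0.06 over all genes. None of the 33 passed the 2-fold call, which 9.31% of all genes passed, although 25 had an unadjusted limma p under 0.05 (6 higher and 19 lower). How many of all genes reached that unadjusted p was not counted, so the 25 have no background beside them. FANCD2 passed the 2-fold call at a log2 fold change of -1.02 with voom on recovered reads. RNA here comes from bulk cultures, in which fewer cells of a kind and less RNA per cell cannot be told apart. Proliferation genes, a list of 24, fell too: 13 fell (54.2%) and 5 rose (20.8%) in parental cells with DAC, with a median log2 fold change of -0.14, and their part in the fall of the repair genes was not tested. The split of 5 rises to 17 falls was 2 to 19 after upper-quartile scaling and 2 to 19 after quantile normalization. The rises also numbered 2 without parental DMSO replicate 2 and 3 without either parental DAC replicate.

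In DAC-resistant cells the same dose lowered 10 of the 33 genes (30.3%), with RAD54L, XRCC2 and UNG the furthest down, and raised 1, PMS2 (3.03%). Here 5.35% of all genes fell and 5.88% rose. The median log2 fold change was -0.16 over the repair genes and 0.01 over all genes. Past the 2-fold call were 0.235% of all genes and none of the 33, by limma as by voom. An unadjusted limma p under 0.05 was reached by 18 of the 33 (1 higher and 17 lower), and the share of all genes at that p was not counted. The falls depended on the libraries: they numbered 4 without DAC-resistant DMSO replicate 1, 3 without DMSO replicate 2 and 3 without either DAC replicate, 4 with the libraries of the other line left out of the fit and 16 with voom. RAD54L and XRCC1 fell under every alternative and with every library left out. In the same comparison 14 of the 24 proliferation genes fell (58.3%) and 2 rose (8.33%), with a median of -0.23, and this too was not tested as a source.

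The 2 lines shared 6 falls (FANCD2, RAD54L, XRCC2, BLM, PARP2 and CHEK2), which is 6 of the 17 in parental and 6 of the 10 in DAC-resistant cells and 18.2% of the 33 genes. Of all genes 1.38% fell in both. Both shares depend on how many genes fell in each line (51.5% and 30.3% of the 33, 24.1% and 5.35% of all genes). Whether more genes fell in both than these shares give was not tested. Of these 6 falls in DAC-resistant cells 5, all but that of RAD54L, lost their call with 1 or another library left out. UNG, FANCA and XRCC1 (9.09% of the 33, against 2.87% of all genes) rose in parental and fell in DAC-resistant cells. That share, too, was not tested against the shares of each line. The falls of UNG and FANCA in DAC-resistant cells and the rise of XRCC1 in parental cells lost their call with 1 or another library left out. The difference of the DAC effects, resistant minus parental, was itself tested and passed for 15 genes: it was above 0 for 9 (27.3%) and below 0 for 6 (18.2%), against 20.9% and 28.4% of all genes. Its median was 0.07 over the repair genes and -0.05 over all genes. The 2-fold call on this difference was passed by 10.6% of all genes and by none of the 33, by limma as by voom. An unadjusted limma p under 0.05 was reached by 15 of the 33, and the share of all genes at that p was not counted. Quantile normalization gave 14 above and 5 below 0. Without DAC-resistant DAC replicate 1, 6 were above and 5 below.

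**Figure D2:**
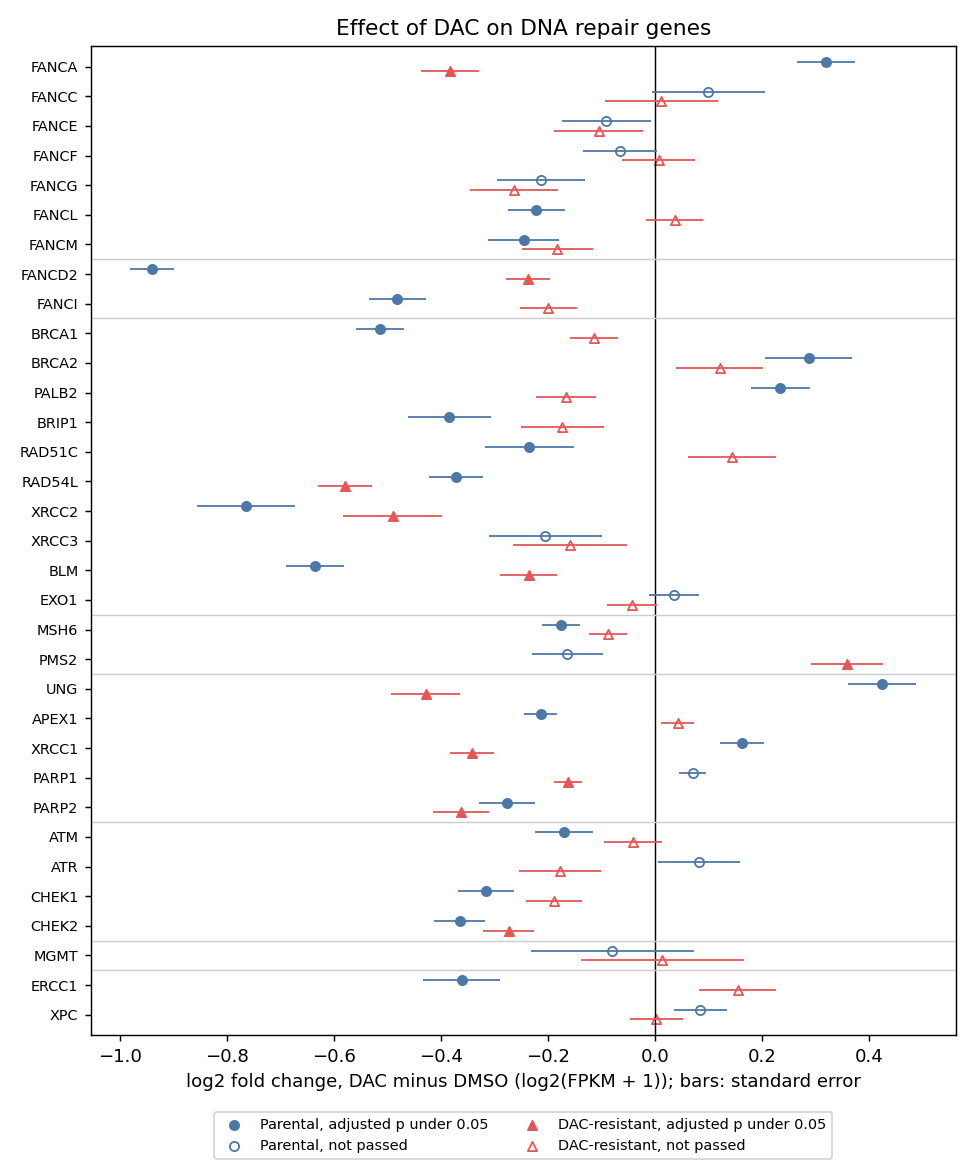
Log2 fold change with DAC (DAC minus DMSO, on log2(FPKM + 1)) of the 33 repair genes in parental (circles) and DAC-resistant (triangles) cells, with standard errors; filled symbols passed an adjusted p of 0.05. FANCD2, XRCC2, BLM and BRCA1 lie further left in parental cells, while FANCA, UNG and XRCC1 lie right of 0 in parental and left of 0 in DAC-resistant cells.

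With DMSO alone the lines differed in 21 of the 33 genes, with FANCE, CHEK2 and FANCF higher and FANCC, BRCA2 and FANCL lower in DAC-resistant cells. There 8 were higher (24.2%) and 13 lower (39.4%), against 31.3% and 26.2% of all genes. The median was -0.11 for the repair genes and 0.02 for all genes. With DAC 10 were higher (30.3%) and 12 lower (36.4%), against 32.0% and 35.1% of all genes, so that these shares lay near the background. The median there was -0.06, and -0.03 for all genes. In the 2 settings together, which share no library, 5 genes were higher and 8 lower in both, 3 (FANCA, PALB2 and UNG) were higher with DMSO and lower with DAC, and 1 (FANCD2) was lower with DMSO and higher with DAC. Among all genes these 4 patterns took 18.8%, 16.3%, 5.45% and 3.70%. Among the 33 they took 15.2%, 24.2%, 9.09% and 3.03%. With DMSO the higher call of PALB2 was lost in 7 of the 8 fits that left out a library and under 5 alternatives (adjusted p up to 0.259). The lower call of PALB2 with DAC was lost after rescaling to TPM (adjusted p = 0.106) and without parental DAC replicate 1 (0.0502). The higher call of FANCA with DMSO was lost without parental DMSO replicate 1 or DAC-resistant DMSO replicate 2, after upper-quartile scaling and with only the libraries compared (adjusted p up to 0.0772). The 2-fold call was passed by 8.73% of all genes with DMSO and by 14.5% with DAC. None of the 33 passed it in limma on log2(FPKM + 1). An unadjusted limma p under 0.05 was reached by 21 and 25 of them, and the share of all genes at that p was not counted. With voom on recovered reads the 2-fold call was passed by FANCC, MGMT and FANCE with DMSO and by FANCC, MGMT and BRCA2 with DAC. FANCC and MGMT, both among the lower genes counted above, entered limma and voom through parental libraries alone. Without a filter MGMT did not pass between the lines (limma adjusted p = 0.0586 with DMSO and 0.0763 with DAC). Rescaling to TPM turned the 8 higher and 13 lower into 11 and 10 with DMSO, and the 10 and 12 into 15 and 8 with DAC. TPM multiplies all genes of a library by the same factor, and how many of all genes changed their call was not counted. The median of all genes went from 0.0179 to 0.0248 with DMSO and from -0.0313 to -0.0074 with DAC. The counts between the lines depend on the scaling and give no direction for the group.

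**Figure D3:**
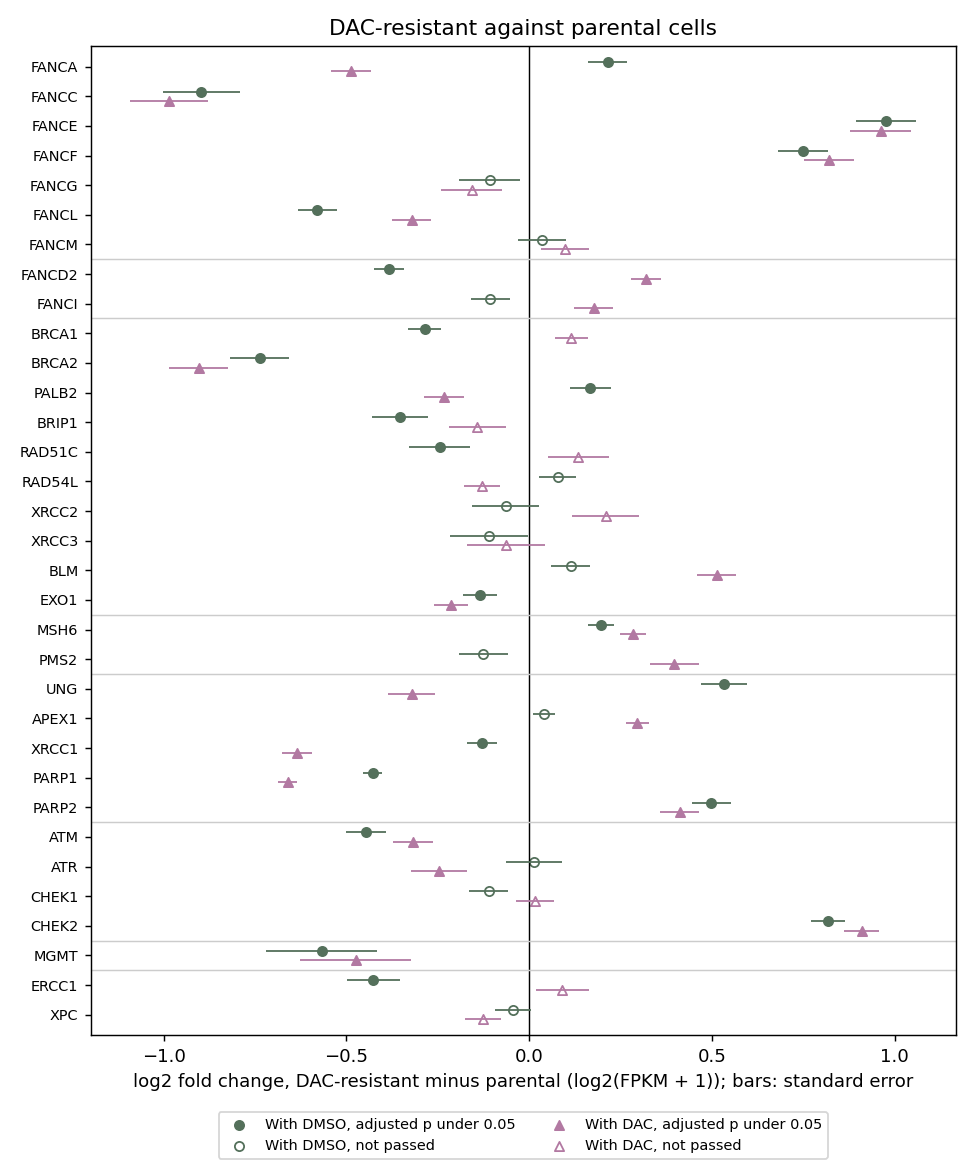
Log2 fold change between the lines (DAC-resistant minus parental, on log2(FPKM + 1)) of the 33 repair genes with DMSO (circles) and with DAC (triangles), with standard errors; filled symbols passed an adjusted p of 0.05. FANCE, FANCF and CHEK2 lie between 0.75 and 0.98 and FANCC and BRCA2 between -0.99 and -0.74 under both treatments, and FANCD2, UNG and FANCA change sides.

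FANCD2 (chr3:10026370-10101932, plus strand, hg38), the ubiquitinated clamp subunit at the center of the Fanconi pathway, gave 13.9 and 14.3 FPKM (DMSO) against 6.84 and 6.88 (DAC) in the parental line, and 10.3 and 10.9 (DMSO) against 8.84 and 8.79 (DAC) in the resistant line. Levels in DAC-treated parental cells were the lowest of the 8, both replicates of every group lay apart from those of every other group, and the lines swapped their order with DAC. The log2 fold change with DAC was -0.94 ± 0.041 (SE, adjusted p = 5.4e-06) in parental cells and -0.24 ± 0.041 (SE, adjusted p = 0.0176) in DAC-resistant cells, and the difference between these effects was 0.70 ± 0.058 (SE, adjusted p = 0.000144). The fall in DAC-resistant cells lost its call without DMSO replicate 2 or without either DAC replicate (adjusted p up to 0.0934) and with only the libraries compared (0.0826). FANCI, its partner in the clamp, stood at 13.1 and 13.2 FPKM (DMSO) against 8.82 and 9.46 (DAC) in the parental line, and 12 and 12.3 (DMSO) against 10.9 and 9.99 (DAC) in the resistant line. With DAC it fell by -0.48 ± 0.053 (SE, adjusted p = 0.000343) in parental cells. In DAC-resistant cells FANCI changed by -0.20, which did not pass (adjusted p = 0.0626). This fall passed with voom (adjusted p = 0.000626) and at a mean of at least 5 FPKM (0.0329). Reads of FANCD2 may be shared with its pseudogene copies nearby, so its level is uncertain to that extent.

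Of the 7 genes of the core complex, the ubiquitin ligase that acts on this clamp, 2 (FANCL and FANCM) fell with DAC in parental cells (28.6%, near the 24.1% of all genes) and 1 (FANCA) rose. FANCA, a large scaffold subunit, was at 3.73 and 3.95 FPKM (DMSO) against 5.11 and 4.97 (DAC) in the parental line, and 4.49 and 4.74 (DMSO) against 3.29 and 3.32 (DAC) in the resistant line. DAC moved it up in parental cells by 0.32 ± 0.055 (SE, adjusted p = 0.00253) and down in DAC-resistant cells by -0.38 ± 0.055 (SE, adjusted p = 0.00959), and the effects differed by -0.70 ± 0.077 (SE, adjusted p = 0.000484). The fall in DAC-resistant cells was lost without DMSO replicate 2 or either DAC replicate (adjusted p up to 0.0583) and with only the libraries compared (0.0701). FANCL, the catalytic RING subunit, read 7.67 and 8.22 FPKM (DMSO) against 6.77 and 6.56 (DAC) in the parental line, and 5.11 and 4.85 (DMSO) against 5.25 and 5.02 (DAC) in the resistant line. It was lower in DAC-resistant cells under both treatments (-0.58 ± 0.053 (SE, adjusted p = 0.000147) with DMSO and -0.32 ± 0.053 (SE, adjusted p = 0.0017) with DAC) and fell with DAC in parental cells by -0.22, a call lost without parental DMSO replicate 2 or parental DAC replicate 2 and with voom (adjusted p up to 0.0692). FANCM, the translocase that anchors the complex on DNA, went from 3.53 and 3.25 to 2.70 and 2.70 FPKM in parental cells (log2 fold change -0.25, adjusted p = 0.0173, lost without parental DMSO replicate 1 or either parental DAC replicate). FANCG, a bridging subunit, ranged from 6.60 to 9.25 FPKM and passed none of the 5 comparisons. It fell with DAC in both lines with voom (adjusted p = 0.0354 and 0.0217) and at a mean of at least 5 FPKM (0.0418 and 0.0445), and in parental cells under upper-quartile scaling (0.0133) and quantile normalization (0.0138).

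FANCE and FANCF, subunits that connect the core complex to the clamp, set the lines apart. FANCE (chr6:35452338-35467104, plus strand) was at 12.6 and 13.1 FPKM (DMSO) against 13.2 and 10.8 (DAC) in the parental line, and 26.5 and 25.8 (DMSO) against 24.8 and 23.7 (DAC) in the resistant line. All 4 DAC-resistant libraries lay above all 4 parental ones, at 2.04 times the parental mean with DMSO and 2.02 times with DAC, while FANCE did not pass with DAC in either line (-0.09 and -0.11, 95% intervals -0.29 to 0.11 and -0.30 to 0.09). The difference between lines was 0.98 ± 0.083 (SE, adjusted p = 0.000101) with DMSO and 0.96 ± 0.083 (SE, adjusted p = 7.26e-05) with DAC. FANCF (chr11:22622533-22625823, minus strand) showed the same order, with 4.09 and 3.68 FPKM (DMSO) against 3.54 and 3.79 (DAC) in the parental line, and 7.11 and 7.28 (DMSO) against 6.89 and 7.59 (DAC) in the resistant line. Its log2 fold change between lines was 0.75 ± 0.068 (SE, adjusted p = 0.000144) with DMSO and 0.82 ± 0.068 (SE, adjusted p = 6.18e-05) with DAC, and its 4 parental libraries did not overlap its 4 DAC-resistant ones.

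FANCC (chr9:95099054-95426796, minus strand), a core subunit that binds FANCE, had few reads left in DAC-resistant cells. It was at 1.00 and 0.893 FPKM (DMSO) against 1.04 and 1.14 (DAC) in the parental line, and 0.0297 and 0.0623 (DMSO) against 0.0734 and 0.0357 (DAC) in the resistant line. Recovered reads numbered 408 and 347, and 365 and 401, in the parental libraries, and 12, 24, 30 and 14 in the DAC-resistant ones. Mean FPKM with DMSO was 20.6-fold lower in DAC-resistant cells, and on the log2(FPKM + 1) scale the difference was -0.90 ± 0.106 (SE, adjusted p = 0.000457). FANCC entered the test through its parental libraries alone, and without a filter on low values the adjusted p was 0.00161 with DMSO and 0.000722 with DAC. With a pseudocount of 0.1 it was -2.85 and with voom -4.45, since the main scale compresses a gene at 1 FPKM. With DAC the lines differed by -0.99 ± 0.106 (SE, adjusted p = 0.000211), and DAC itself moved FANCC by 0.10 in parental and 0.01 in DAC-resistant cells, without passing (95% intervals -0.15 to 0.35 and -0.24 to 0.27).

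The genes around FANCC were read in the same libraries. PTCH1, the Hedgehog receptor 16.2 kb away on the same strand, had 532, 472, 560 and 660 reads in the parental libraries and 3, 1, 12 and 4 in the DAC-resistant ones. FBP1, 458.8 kb away on the other side, had 12 to 35 reads in parental and 0 to 5 in DAC-resistant cells. AOPEP overlaps FANCC on the opposite strand and had 51 to 106 reads in parental and 29 to 50 in DAC-resistant libraries. Since the use of strand in counting is not stated, reads of these 2 genes may not be told apart where they overlap. ERCC6L2, 444.5 kb from FANCC and beyond PTCH1, had 1503 to 1692 reads in parental DMSO and 1640 to 1657 in DAC-resistant DMSO libraries, and MFSD14B, 638.0 kb away beyond FBP1, had means of 26.3 FPKM (DMSO) and 34.9 FPKM (DAC) in the parental line and of 30.5 and 29.8 FPKM in the resistant line. FANCC and PTCH1 had at most 30 reads in every DAC-resistant library and at least 347 in every parental one, as the plot of the region shows. Without a filter, MFSD14B was higher in DAC-resistant cells with DMSO (0.20, limma adjusted p = 0.0104). SLC35D2 (0.55, adjusted p = 0.000926) and ZNF367 (0.92, 0.000268), further out beyond ERCC6L2, were higher too. ZNF169 and PTPDC1, beyond MFSD14B, did not pass (-0.49 and 0.18, adjusted p = 0.053 and 0.369). DNA copy number was not analysed here.

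**Figure D4:**
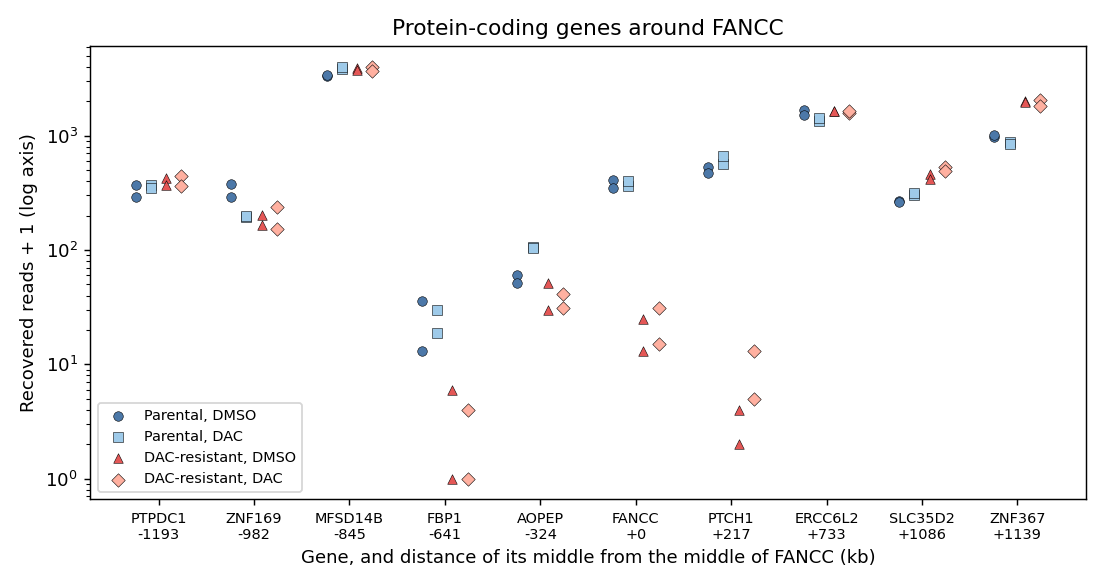
Recovered reads plus 1 (log axis) in each of the 8 libraries for protein-coding genes near FANCC with at least 100 reads over all libraries, ordered along the chromosome, with the distance of each gene's middle from that of FANCC in kb. The parental points of FANCC and PTCH1 lie between 347 and 660 reads and their DAC-resistant points between 1 and 30, while MFSD14B and ERCC6L2 on either side overlap or nearly overlap between the lines.

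Among the recombination genes, XRCC2, which acts in the repair of double-strand breaks, and BLM, the helicase that dissolves joined DNA molecules, fell the most with DAC in parental cells. XRCC2 (chr7:152644776-152676193, minus strand) was at 10.3 and 8.61 FPKM (DMSO) against 4.75 and 5.52 (DAC) in the parental line, and 8.96 and 8.94 (DMSO) against 5.91 and 6.25 (DAC) in the resistant line. In both lines the values with DAC lay below those with DMSO, by -0.77 ± 0.092 (SE, adjusted p = 0.000496) in parental and -0.49 ± 0.092 (SE, adjusted p = 0.022) in DAC-resistant cells. The latter was lost without any one of the 4 DAC-resistant libraries (adjusted p up to 0.103) and without a filter on low values (0.0829), and the difference of the effects was 0.27 (95% interval -0.04 to 0.59), which did not pass (adjusted p = 0.126, but 0.045 with voom and 0.0402 after quantile normalization). BLM (chr15:90717346-90816166, plus strand) was at 13.0 and 12.2 FPKM (DMSO) against 7.77 and 7.73 (DAC) in the parental line, and 13.1 and 14.4 (DMSO) against 11.6 and 11.4 (DAC) in the resistant line. Its level in DAC-treated parental cells was the lowest of all groups, after a fall of -0.64 ± 0.054 (SE, adjusted p = 0.000104), and the DAC effect was smaller in DAC-resistant cells, by 0.40 ± 0.076 (SE, adjusted p = 0.00532). The fall of -0.24 in DAC-resistant cells (adjusted p = 0.0407) was lost whichever of the 8 libraries was left out.

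RAD54L, a motor protein that moves along DNA, was at 11.9 and 11.6 FPKM (DMSO) against 9.20 and 8.54 (DAC) in the parental line, and 12.8 and 12.1 (DMSO) against 7.86 and 8.17 (DAC) in the resistant line. It fell in both lines, by -0.37 ± 0.050 (SE, adjusted p = 0.00083) in parental and -0.58 ± 0.050 (SE, adjusted p = 0.00193) in DAC-resistant cells, where it was the largest fall of the 33. BRCA1, which steers broken ends into recombination, was at 20.4 and 19.3 FPKM (DMSO) against 13.3 and 13.8 (DAC) in the parental line, and 16.5 and 15.7 (DMSO) against 15.1 and 14.5 (DAC) in the resistant line. It fell in parental cells (-0.51 ± 0.045 (SE, adjusted p = 0.000117)). In DAC-resistant cells it changed by -0.11, which did not pass (adjusted p = 0.167, but 0.0459 with voom). The effects differed by 0.40 ± 0.063 (SE, adjusted p = 0.00236). BRCA1 was also lower in DAC-resistant cells with DMSO, by -0.29 ± 0.045 (SE, adjusted p = 0.00174). With DAC the difference between the lines was 0.12 and did not pass (adjusted p = 0.058). There BRCA1 was higher in DAC-resistant cells after rescaling to TPM (0.00547) or upper-quartile scaling (0.0411). A nearby partial copy of BRCA1 may share its reads.

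BRCA2 (chr13:32315086-32400268, plus strand), which acts on the resected ends of breaks, went the other way with DAC and was the recombination gene that set the lines apart most. Its levels were 4.53 and 4.09 FPKM (DMSO) against 5.50 and 5.45 (DAC) in the parental line, and 2.38 and 2.00 (DMSO) against 2.36 and 2.56 (DAC) in the resistant line. All 4 DAC-resistant libraries lay below all 4 parental ones, by -0.74 ± 0.081 (SE, adjusted p = 0.000331) with DMSO and -0.90 ± 0.081 (SE, adjusted p = 8.74e-05) with DAC. The rise with DAC in parental cells, 0.29 ± 0.081 (SE, adjusted p = 0.0213), was lost without parental DMSO replicate 2 or either parental DAC replicate (adjusted p up to 0.111), and after upper-quartile scaling (0.0827) or quantile normalization (0.0961). PALB2, which joins BRCA1 to BRCA2, rose in parental cells by 0.23, a call lost without parental DMSO replicate 2 or parental DAC replicate 1 and after upper-quartile scaling or quantile normalization (adjusted p up to 0.0882). Its change of -0.17 in DAC-resistant cells did not pass (adjusted p = 0.114), and these effects differed by -0.40 ± 0.079 (SE, adjusted p = 0.00596).

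BRIP1, the helicase partner of BRCA1, fell in parental cells from 2.73 and 2.39 to 1.69 and 1.76 FPKM (-0.38 ± 0.078 (SE, adjusted p = 0.00536)) and stood at 1.43 to 1.79 FPKM in the 4 DAC-resistant libraries. With DMSO BRIP1 was lower in DAC-resistant cells, by -0.35 ± 0.078 (SE, adjusted p = 0.0077). With DAC the difference between the lines was -0.14 and did not pass (adjusted p = 0.148, but 0.0105 with voom). RAD51C passed in parental cells at an adjusted p of 0.0475, a call lost in 6 of the 8 fits that left out a library. The call was also lost without a filter (adjusted p = 0.107) and with a pseudocount of 0.1 (0.0512). A block for the replicate number (0.0712) and variances not following a trend (0.0608) ended it too. EXO1, the nuclease that trims ends, did not pass with DAC in either line (0.03 and -0.04) and was lower in DAC-resistant cells, by -0.14 ± 0.047 (SE, adjusted p = 0.0437) with DMSO and by -0.21 ± 0.047 (SE, adjusted p = 0.00597) with DAC, the former lost in 7 of the 8 fits that left out a library (adjusted p up to 0.206) and the latter after rescaling to TPM (0.12). XRCC3 ranged from 1.84 to 2.90 FPKM and passed 1 comparison under 1 alternative alone, a fall with DAC in parental cells after quantile normalization (adjusted p = 0.0409).

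**Figure D5:**
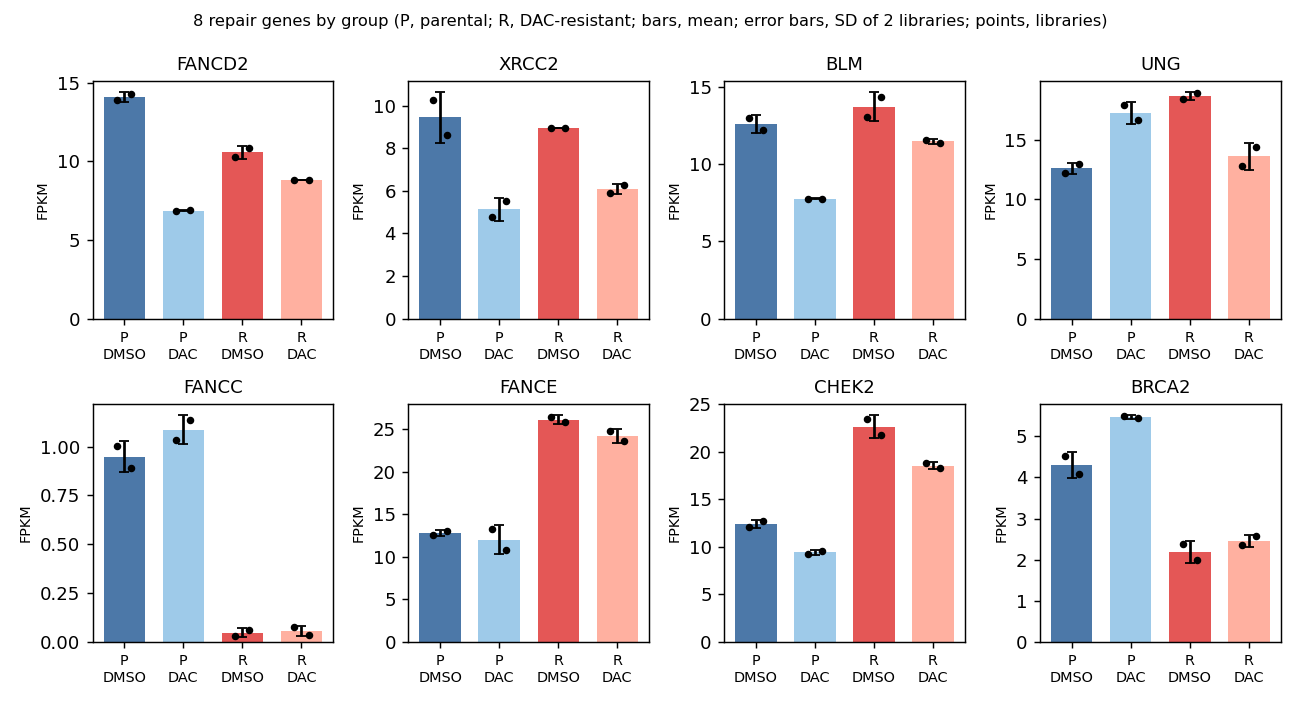
FPKM of 8 repair genes in the 4 groups (P, parental; R, DAC-resistant); bars are means, error bars the SD of 2 libraries and points the libraries, on linear axes from 0. FANCD2, XRCC2 and BLM are lowest in DAC-treated parental cells, UNG rises in P and falls in R, FANCC and BRCA2 are lower and FANCE and CHEK2 higher in both R groups.

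The start sites of the 3 genes that fell most with DAC in parental cells, and of FANCC, are shown with their sequences, from RefSeq on GRCh38.p14, from 250 bases before to 30 bases after the start. The table used here held 47 windows of 300 bases (to 50 bases after the start) for 32 of the 33 genes, and some genes have several windows. Letters searched on both strands were GGCGGGAA and TTTNGCGC (E2F type), CCAAT (the CCAAT box) and TTTGAA (a cell cycle element, CHR), of which the pair of E2F type cannot overlap each other and CCAAT can share end bases with the others. In the first 3 sequences capitals mark these letters or their reverse complements, and in FANCC they mark CpG, the pair of bases at which DNA is methylated.
FANCD2, chr3:10026187-10026466, plus strand: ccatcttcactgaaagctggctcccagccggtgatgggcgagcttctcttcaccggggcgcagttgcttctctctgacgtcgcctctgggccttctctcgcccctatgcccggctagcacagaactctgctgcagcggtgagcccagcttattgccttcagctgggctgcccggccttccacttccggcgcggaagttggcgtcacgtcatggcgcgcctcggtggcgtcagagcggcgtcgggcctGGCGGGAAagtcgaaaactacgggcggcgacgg
XRCC2, chr7:152676112-152676391, minus strand: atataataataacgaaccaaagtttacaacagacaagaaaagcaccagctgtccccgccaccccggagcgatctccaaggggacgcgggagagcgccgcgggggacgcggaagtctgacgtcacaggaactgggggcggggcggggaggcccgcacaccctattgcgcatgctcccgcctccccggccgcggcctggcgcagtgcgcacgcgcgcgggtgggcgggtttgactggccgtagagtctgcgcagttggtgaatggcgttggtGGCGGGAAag
BLM, chr15:90717096-90717375, plus strand: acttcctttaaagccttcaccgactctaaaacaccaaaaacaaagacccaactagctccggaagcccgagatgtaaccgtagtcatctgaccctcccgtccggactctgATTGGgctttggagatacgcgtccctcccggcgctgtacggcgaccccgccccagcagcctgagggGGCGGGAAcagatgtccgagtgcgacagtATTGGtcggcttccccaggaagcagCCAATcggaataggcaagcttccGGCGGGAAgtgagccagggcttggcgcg
FANCC, chr9:95317680-95317959, minus strand: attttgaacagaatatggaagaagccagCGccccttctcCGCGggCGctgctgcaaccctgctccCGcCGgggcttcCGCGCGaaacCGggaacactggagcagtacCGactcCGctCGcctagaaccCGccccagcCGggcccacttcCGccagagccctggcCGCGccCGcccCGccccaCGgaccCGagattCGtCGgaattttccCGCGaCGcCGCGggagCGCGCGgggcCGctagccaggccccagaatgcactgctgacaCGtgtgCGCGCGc
Counting the start as base 1, GGCGGGAA begins 3 bases before the start in FANCD2, at base 21 after it in XRCC2, and 75 bases before and at base 3 in BLM. It was found in 15 of the 47 windows (31.9%), against 3.16% of all 35116 windows of this length, and by gene in 12 of 32. Windows of 1 gene can overlap and count the same site again, as in RAD54L. GGCGGGAA itself holds a CpG, and the windows of all genes were not matched for CpG, which is given below. TTTNGCGC was in 6.38% of the repair gene windows and 1.79% of all, CCAAT in 51.1% and 34.6%, and TTTGAA in 12.8% and 15.2%. By gene, GGCGGGAA was in 8 of the 16 genes with a window that fell with DAC in parental cells, in 4 of the 11 that did not pass and in none of the 5 that rose; these counts carry no test, and a match of letters is not a bound site. The table held 2 FANCC windows, with 41 CpG in 300 bases for the one printed and 38 for the other, which also has a GGCGGGAA. The median was 26 over the repair gene windows and 14 over all windows. Methylation was not analysed here.

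UNG, the uracil glycosylase that opens base excision repair, had the largest difference in DAC effects between the lines of the 33 genes, with opposite directions. It was at 12.2 and 12.9 FPKM (DMSO) against 17.9 and 16.6 (DAC) in the parental line, and 18.4 and 18.9 (DMSO) against 12.8 and 14.4 (DAC) in the resistant line. With DMSO both DAC-resistant libraries were above the parental ones, and with DAC both were below. DAC raised UNG in parental cells by 0.42 ± 0.064 (SE, adjusted p = 0.00141) and lowered it in DAC-resistant cells by -0.43 ± 0.064 (SE, adjusted p = 0.0111), and the effects differed by -0.85 ± 0.090 (SE, adjusted p = 0.000407), a difference that held under every alternative. The fall in DAC-resistant cells was lost without either DMSO replicate of that line (adjusted p up to 0.0621) and with only the libraries compared (0.0679).

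XRCC1, the scaffold of single-strand break repair, also rose with DAC in parental and fell in DAC-resistant cells, at 16.6 and 16.4 FPKM (DMSO) against 18.0 and 19.3 (DAC) in the parental line, and 15.2 and 14.8 (DMSO) against 11.5 and 11.8 (DAC) in the resistant line. It fell with DAC in DAC-resistant cells by -0.34 ± 0.042 (SE, adjusted p = 0.00595), and the effects differed by -0.50 ± 0.059 (SE, adjusted p = 0.000626). Its rise in parental cells, 0.16, was lost without parental DMSO replicate 2 or parental DAC replicate 2 and under upper-quartile scaling or quantile normalization (adjusted p up to 0.309). PARP1, the sensor of strand breaks, was at 32.8 and 33.6 FPKM (DMSO) against 35.0 and 34.9 (DAC) in the parental line, and 24.4 and 24.5 (DMSO) against 21.7 and 21.7 (DAC) in the resistant line. Its 4 DAC-resistant libraries lay below its 4 parental ones, by -0.43 ± 0.026 (SE, adjusted p = 2.35e-05) with DMSO and -0.66 ± 0.026 (SE, adjusted p = 2.02e-06) with DAC. PARP2, a related enzyme, was by contrast higher in DAC-resistant cells (0.50 ± 0.053 (SE, adjusted p = 0.000281) with DMSO and 0.41 ± 0.053 (SE, adjusted p = 0.000498) with DAC) and fell with DAC in both lines, from 13.2 and 13.3 to 10.2 and 11.4 FPKM and from 19.2 and 19.0 to 14.4 and 14.9 FPKM. The latter fall was lost without any one of the 4 DAC-resistant libraries (adjusted p up to 0.0643). APEX1, the endonuclease that cuts at sites without a base, fell in parental cells by -0.21 ± 0.030 (SE, adjusted p = 0.0011), which quantile normalization ended (adjusted p = 0.0903). Its change of 0.04 in DAC-resistant cells did not pass (adjusted p = 0.438).

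Of the mismatch repair genes, MSH6, a subunit of the main mismatch sensor, was at 12.5 and 12.4 FPKM (DMSO) against 10.9 and 10.9 (DAC) in the parental line, and 14.4 and 14.5 (DMSO) against 13.8 and 13.2 (DAC) in the resistant line. It fell with DAC in parental cells by -0.18 ± 0.035 (SE, adjusted p = 0.00531) and was higher in DAC-resistant cells by 0.20 ± 0.035 (SE, adjusted p = 0.00316) with DMSO and 0.28 ± 0.035 (SE, adjusted p = 0.000426) with DAC. PMS2, the nuclease subunit that cuts the strand to be repaired, was at 3.46 and 3.36 FPKM (DMSO) against 2.74 and 3.14 (DAC) in the parental line, and 3.10 and 2.98 (DMSO) against 4.19 and 4.17 (DAC) in the resistant line. It was the 1 gene of the 33 that DAC raised in DAC-resistant cells (0.36 ± 0.067 (SE, adjusted p = 0.0218)), a call lost without any one of that line's 4 libraries (adjusted p up to 0.104), and the effects of DAC differed between the lines by 0.52 ± 0.095 (SE, adjusted p = 0.00422). PMS2 has near-identical pseudogenes that may share its reads.

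CHEK2 (chr22:28687743-28742422, minus strand), the kinase downstream of ATM, was the damage kinase with the largest differences between the lines, at 12.1 and 12.7 FPKM (DMSO) against 9.24 and 9.56 (DAC) in the parental line, and 23.5 and 21.8 (DMSO) against 18.8 and 18.3 (DAC) in the resistant line. All 4 DAC-resistant libraries were above all 4 parental ones, by 0.82 ± 0.048 (SE, adjusted p = 2.03e-05) with DMSO and 0.91 ± 0.048 (SE, adjusted p = 7.18e-06) with DAC. DAC lowered it in parental cells by -0.37 ± 0.048 (SE, adjusted p = 0.000735) and in DAC-resistant cells by -0.27 ± 0.048 (SE, adjusted p = 0.0179), a fall lost without DMSO replicate 1 or either DAC replicate of that line, without a filter and with only the libraries compared (adjusted p up to 0.103). CHEK2 has pseudogene copies, and its reads are uncertain to that extent.

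ATM, which answers double-strand breaks, was at 4.79 and 4.93 FPKM (DMSO) against 4.15 and 4.27 (DAC) in the parental line, and 3.20 and 3.41 (DMSO) against 3.15 and 3.21 (DAC) in the resistant line. It was lower in DAC-resistant cells, by -0.45 ± 0.054 (SE, adjusted p = 0.000535) with DMSO and -0.32 ± 0.054 (SE, adjusted p = 0.00198) with DAC, and its DAC effect of -0.17 in parental cells (adjusted p = 0.0339) was lost in 6 of the 8 fits that left out a library, with an adjusted p up to 0.135. ATR, which answers stalled forks, was at 1.9 and 1.72 FPKM (DMSO) against 1.9 and 2.05 (DAC) in the parental line, and 1.89 and 1.78 (DMSO) against 1.47 and 1.55 (DAC) in the resistant line. Its 1 passing comparison was between the lines with DAC (-0.25 ± 0.077 (SE, adjusted p = 0.0265)), which ended without parental DAC replicate 2 or either DAC-resistant DAC replicate and with only the libraries compared, rescaling to TPM or quantile normalization (adjusted p up to 0.30). With voom ATR also fell with DAC in DAC-resistant cells (adjusted p = 0.00397) and the DAC effects differed (0.000623), the latter also with variances that follow no trend (0.0363). CHEK1, the kinase downstream of ATR, was at 14.2 and 15.0 FPKM (DMSO) against 12.1 and 11 (DAC) in the parental line, and 13.4 and 13.5 (DMSO) against 11.6 and 11.7 (DAC) in the resistant line. It fell in parental cells (-0.32 ± 0.052 (SE, adjusted p = 0.00217)) and moved by -0.19 in DAC-resistant cells without passing (adjusted p = 0.0686), and it did not pass between the lines (95% intervals -0.24 to 0.01 with DMSO and -0.11 to 0.14 with DAC). The fall in DAC-resistant cells passed at a mean of at least 5 FPKM (adjusted p = 0.0356) and with voom (0.0103). CHEK1 was lower in DAC-resistant cells with DMSO under upper-quartile scaling, quantile normalization (adjusted p = 0.0156 in both) and voom (0.0359).

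MGMT, which takes alkyl groups off guanine and is often silenced by promoter methylation in tumors, was low throughout, at 1.32 and 1.56 FPKM (DMSO) against 1.35 and 1.25 (DAC) in the parental line, and 0.806 and 0.494 (DMSO) against 0.864 and 0.475 (DAC) in the resistant line. The lines did not overlap, with 225 to 308 recovered reads in parental and 95 to 180 in DAC-resistant libraries, and differed by -0.57 ± 0.152 (SE, adjusted p = 0.0173) with DMSO and -0.47 ± 0.152 (SE, adjusted p = 0.0293) with DAC. Within each group of DAC-resistant cells replicate 1 was well above replicate 2. The difference with DMSO was lost without a filter (adjusted p = 0.0586) and without parental DMSO replicate 2 or DAC-resistant DMSO replicate 2, and that with DAC without a filter, after rescaling to TPM or quantile normalization, and without either parental DAC replicate or DAC-resistant DAC replicate 2 (adjusted p up to 0.179). MGMT did not pass with DAC in either line (-0.08 and 0.01, 95% intervals -0.44 to 0.28 and -0.35 to 0.38).

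Of the nucleotide excision repair genes, ERCC1, part of the nuclease that cuts 5′ of a lesion, was at 10.3 and 10.8 FPKM (DMSO) against 8.56 and 7.39 (DAC) in the parental line, and 7.87 and 7.27 (DMSO) against 8.42 and 8.65 (DAC) in the resistant line. It fell with DAC in parental cells (-0.36 ± 0.072 (SE, adjusted p = 0.00502)) and moved by 0.15 in DAC-resistant cells, where it did not pass. These effects differed by 0.52 ± 0.102 (SE, adjusted p = 0.00601). With DMSO ERCC1 was lower in DAC-resistant cells, by -0.43 ± 0.072 (SE, adjusted p = 0.00241). With DAC the difference between the lines was 0.09 and did not pass (adjusted p = 0.305, but 0.0454 after rescaling to TPM). XPC, which finds distorted DNA, was at 5.45 and 5.75 FPKM (DMSO) against 6.07 and 5.92 (DAC) in the parental line, and 5.30 and 5.50 (DMSO) against 5.30 and 5.51 (DAC) in the resistant line. Its 8 values lay within 5.30 and 6.07 FPKM, and it passed no comparison.

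A wider list of 113 other repair and checkpoint genes, of which 109 were tested, was read for comparison. In parental cells with DAC 42 fell (38.5%) and 18 rose (16.5%), against 24.1% and 33.6% of all genes (median -0.10). The largest falls were those of EME1 (-1.49), a subunit of a nuclease for branched DNA, and POLQ (-1.12), the polymerase of end joining by short homologies, and the largest rises those of HUS1 (0.69), of the checkpoint clamp, and DDB1 (0.66), of the ultraviolet damage sensor. In DAC-resistant cells 10 fell (9.17%) and 7 rose (6.42%), against 5.35% and 5.88% of all genes (median -0.03), with FEN1 (-0.66), the flap nuclease, and CENPX (-0.57) lowest and NBN (0.42) and RAD23B (0.32) highest. Between the lines 37 were higher (33.9%) and 25 lower (22.9%) in DAC-resistant cells with DMSO, near the 31.3% and 26.2% of all genes (median 0.07), led by TDP2 (0.96) and UBE2T (0.94), the ubiquitin-conjugating partner of FANCL, and by NEIL2 (-1.45), a base glycosylase, and POLI (-0.75). With DAC 47 were higher (43.1%) and 25 lower (22.9%), against 32.0% and 35.1% of all genes (median 0.13), led by MDC1 (1.16) and EME1 (1.05) and by HUS1 (-0.97) and NEIL2 (-0.94). The difference of the DAC effects was above 0 for 30 (27.5%) and below 0 for 17 (15.6%), against 20.9% and 28.4% of all genes (median 0.12), at the ends EME1 (1.46) and POLI (1.04), and HUS1 (-0.84) and DDB1 (-0.80). Of the 20 other recombination genes tested 10 fell (50%) and 3 rose (15%) in parental cells with DAC, and of the 11 other Fanconi genes 5 fell (45.5%) and 2 rose (18.2%). In DAC-resistant cells 1 of the 20 fell and 2 rose, and 2 of the 11 fell and 1 rose. Of the 24 proliferation genes 16 were higher (66.7%) and 4 lower (16.7%) in DAC-resistant cells with DMSO (median 0.175, range -1.01 to 1.02), and their part in the differences of the repair genes was not tested.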

How the data were processed

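RNA-seq of 8 libraries from THP-1 cells was analysed. Per the labels and the study's methods, the authors made mRNA libraries from total RNA, trimmed reads with cutadapt 1.9.1, aligned them to hg38 with HISAT2 2.1.0 and counted genes with HTSeq 0.13.5; use of strand is not given in the sources used here. The authors deposited FPKM values multiplied by 1000, which were divided by 1000. Between 86.9% and 87.4% of the values of a library gave whole reads (within 0.02) with GENCODE v44 lengths, and the steps between values settled most other genes. The recovered reads served for voom and for the read numbers given; 574 genes above 0 were left unsolved.

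Values were fitted as log2(FPKM + 1), for genes of at least 1 FPKM in 2 or more libraries, with limma 3.58.1 (R 4.3.3): 4 group means in 1 fit, moderated variances with a trend (2.5 prior and 4 residual degrees of freedom), 2-sided, Benjamini-Hochberg over all genes tested. The 5 comparisons were DAC against DMSO in each line, the lines with DMSO and with DAC, and the difference of the DAC effects. The fit was tested on simulated data. Members and gene lists were chosen, from general knowledge, with earlier results of these data known. Full values are given for the up to 3 largest rises and falls per comparison, for MGMT and for members of each role; others that are printed in full, and FANCC's neighbours, were chosen after their values were seen. Alternatives were a pseudocount of 0.1, no filter, a mean of at least 5 FPKM, rescaling to TPM, upper-quartile and quantile scaling, a block for the replicate number, a fit of only those libraries compared, variances not following a trend, voom on recovered reads scaled by their totals, and leaving out each library. Repeat families in the table were not used. Promoter windows came from RefSeq (GRCh38.p14), gene positions from GENCODE v44.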

Additional observations from a re-analysis of the deposited data

Results flagged for a closer look

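For 15 of the 33 repair genes the effect of DAC differed between the lines by a limma interaction test (resistant minus parental, log2 scale, Benjamini-Hochberg adjusted p under 0.05 over all genes), which is 45.5% of them, against 49.3% of all genes. These were picked out because the 2 lines gave different effects under the same treatment. The difference was negative for UNG (-0.85), FANCA (-0.70), XRCC1 (-0.50), PALB2 (-0.40), PARP1 (-0.23) and RAD54L (-0.21). It was positive for APEX1 (0.26), FANCL (0.26), FANCI (0.28), RAD51C (0.38), BLM (0.40), BRCA1 (0.40), ERCC1 (0.52), PMS2 (0.52) and FANCD2 (0.70). Those of FANCA, FANCD2, BRCA1, PALB2, BLM, PMS2, UNG, XRCC1, PARP1 and ERCC1, 10 of the 15, held under every alternative that tested them and with each library left out. That of RAD54L passed in 2 of 9 alternatives and in 1 of 8 fits with a library left out, and that of APEX1 was lost under quantile normalization (adjusted p = 0.165). Those of FANCI, FANCL and RAD51C were lost in 5, 5 and 6 of the 8 fits with a library left out. The difference of FANCL was also lost with voom (adjusted p = 0.177). That of RAD51C was also lost without a filter (0.0901) and with the replicate number as a block (0.0554).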

How the results depend on the processing

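No gene that passed a test reversed its direction under any alternative run. Of the genes that passed, 14 of 22 kept their call under every alternative that tested them and every left-out library for DAC in parental cells, 2 of 11 for DAC in DAC-resistant cells, 15 of 21 and 17 of 22 between the lines with DMSO and with DAC, and 10 of 15 for the difference of the DAC effects. With DAC in parental cells the rises numbered 3 with a mean of at least 5 FPKM (which tested 23 of the 33 genes) and 2 with upper-quartile or quantile scaling, and 1 gene, FANCD2, passed the 2-fold call with a pseudocount of 0.1, TPM, upper-quartile or quantile scaling, and voom. In DAC-resistant cells the rise of PMS2 was lost (0 rises) without a filter and with only the libraries compared, it was not tested at a mean of at least 5 FPKM (0 rises), and the falls numbered 4 with only the libraries compared and 16 with voom. Lower genes between the lines numbered 8 with DMSO and 6 with DAC at a mean of at least 5 FPKM. The 2-fold call between the lines was passed by 2, 2 and 3 genes with DMSO, and 3, 4 and 3 with DAC, for a pseudocount of 0.1, TPM and voom. FANCC was among them each time and MGMT with voom, both tested through parental libraries alone. Quantile normalization gave 14 differences of DAC effects above 0. It moved the median of all genes with DAC in parental cells from 0.06 to -0.05, and that of the difference of DAC effects from -0.05 to 0.05. Except where fewer genes or libraries entered a fit, the cause was not tested.

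With 1 library left out, and the lone library of its group assumed to vary like the others, DAC in parental cells gave 2 to 5 rises and 14 to 17 falls, and DAC in DAC-resistant cells 0 to 1 and 3 to 10. Between the lines 6 to 8 genes were higher and 9 to 11 lower with DMSO (2-fold call 0 to 1), and 9 to 11 higher and 10 to 12 lower with DAC (2-fold call 0 to 2). The difference of DAC effects was above 0 for 6 to 8 and below 0 for 5 to 6 genes.

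With the replicate number as a block, the rises and falls numbered 5 and 16, and 1 and 9, with DAC in parental and DAC-resistant cells, 8 and 12, and 10 and 12, between the lines with DMSO and with DAC, and 8 and 5 for the difference of DAC effects. Deviations of same-numbered libraries correlated at -0.022 to 0.020, so no shift shared by same-numbered libraries was seen. This cannot tell whether their cultures were paired, which the labels do not say. Depth limits FANCC most, which had 12 to 30 recovered reads in DAC-resistant libraries, and then MGMT, with 95 at the least.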
